A study of Mus musculus with 35 samples.

Results

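Ms4a6b, Ms4a6c, Ms4a6d and Ms4a4c are neighbouring genes of the MS4A cluster. They were named by symbol, by a rule that uses no measured value but with earlier results of these data known. All 4 were found among the 21236 Ensembl genes of the count table by their identifiers. RNA was measured in microglia, the resident macrophages of the brain, sorted from the midbrain (n = 12 samples), striatum (n = 12) and prefrontal cortex (PFC, n = 11) of 6 male and 6 female adult C57Bl/6J mice. All mice carried Tmem119-2A-CreERT2 with the Ai14(RCL-tdTomato)-D reporter and received Tamoxifen, so by their labels the groups differed in brain region and sex. The Tmem119-driven Cre limits the sample to cells that switched on the reporter, and microglia without it were not collected. Each mouse gave 1 sample per region, except mouse 3, which gave no PFC sample.

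MS4A genes encode small proteins that cross the cell membrane several times, and several of them are expressed by macrophages and microglia. The human MS4A cluster lies at a locus associated with Alzheimer's disease risk and with the level of soluble TREM2, the shed part of a microglial lipid receptor. Mice carry several Ms4a6 and Ms4a4 genes that arose by duplication, and Ms4a4c is often listed among the genes that interferon induces in myeloid cells.

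In GENCODE M21 on GRCm38 all 4 genes lie on chromosome 19 within 200.08 kb. Ms4a4c (ENSMUSG00000024675) occupies 11404770 to 11427246 on the plus strand and has 1751 exonic bases in 8 blocks. Ms4a6c (ENSMUSG00000079419) occupies 11469366 to 11482192 on the plus strand, with 2050 exonic bases. Ms4a6b (ENSMUSG00000024677) follows at 11516512 to 11531256, also on the plus strand, with 4485 exonic bases. Ms4a6d (ENSMUSG00000024679) occupies 11586604 to 11604849 on the minus strand, with 1735 exonic bases. The coding sequences of the Ms4a6 genes were alike, with 79.8% identical aligned bases between Ms4a6b and Ms4a6d, 73.95% between Ms4a6b and Ms4a6c and 66.8% between Ms4a6c and Ms4a6d. The coding sequence of Ms4a4c was 49.5% to 51.5% identical to those of the Ms4a6 genes and 91.7% identical to that of its neighbour Ms4a4b, a gene best known from T cells.

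The stretches before the RefSeq starts of 3 of the 4 members are shown because Ms4a6b and Ms4a6c share much of theirs while Ms4a4c, the member with the largest regional difference, does not. They come from the RefSeq promoter table on GRCm38.p6, each covers the 250 bases before the start or the part of them outside annotated exons, and all are read on the plus strand. The Ms4a6b stretch is chr19:11518309-11518452, that of Ms4a6c is chr19:11469118-11469365 and that of Ms4a4c is chr19:11407411-11407660. Capitals mark matches to GAAANNGAA, letters of the interferon regulatory factor type, and to AGGAAGT, letters of the PU.1 type.
Ms4a6b: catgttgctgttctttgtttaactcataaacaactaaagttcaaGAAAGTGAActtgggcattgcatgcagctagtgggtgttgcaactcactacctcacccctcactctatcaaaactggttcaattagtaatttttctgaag
Ms4a6c: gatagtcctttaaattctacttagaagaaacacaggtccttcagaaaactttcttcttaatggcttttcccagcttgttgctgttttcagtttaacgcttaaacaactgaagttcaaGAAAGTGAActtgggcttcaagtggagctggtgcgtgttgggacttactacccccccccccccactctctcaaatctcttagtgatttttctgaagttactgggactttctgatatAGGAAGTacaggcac
Ms4a4c: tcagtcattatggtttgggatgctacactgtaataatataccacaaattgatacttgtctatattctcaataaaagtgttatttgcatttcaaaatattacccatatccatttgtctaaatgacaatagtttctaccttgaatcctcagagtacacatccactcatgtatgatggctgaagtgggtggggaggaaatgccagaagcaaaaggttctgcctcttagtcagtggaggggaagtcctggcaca

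The windows of Ms4a6b and Ms4a6c aligned over 182 columns with 149 identical bases (81.9%), and their longest identical run was 48 bases. Against Ms4a4c, the longest run that either of them shared was 8 bases. The window of Ms4a4c was closest to that of Ms4a4b, with 71.8% identity over the aligned columns. GAAAGTGAA, a match to GAAANNGAA, stood 206 to 198 bases before the start of Ms4a6b and 133 to 125 bases before that of Ms4a6c. AGGAAGT stood 17 to 11 bases before the start of Ms4a6c. Ms4a6b held it 86 to 80 bases before its start, and its reverse complement 43 to 37 bases before, both in the exonic part not printed. No match to either, nor to TTCNNNGAA of the STAT type, was in the Ms4a4c window, and none of the matches overlapped. Both strands were searched, with letters chosen after the sequences had been seen, and 7.13%, 7.69% and 7.02% of 32851 RefSeq promoter windows of 250 bases held GAAANNGAA, AGGAAGT and TTCNNNGAA. The starts of Ms4a6b and Ms4a4c in RefSeq lie 2047 and 2891 bases inside the genes as GENCODE draws them, so their windows are internal to the GENCODE genes.

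Total counts ranged from 37680501 to 54131421 per sample. All 12 homeostatic microglia genes on the marker list were in the table, and their summed level in CPM, counts scaled to library size, was 47293 ± 2182 for midbrain samples (SD, n = 12), 52531 ± 2719 for striatum samples (n = 12) and 51386 ± 2316 for PFC samples (n = 11). Tmem119 was at 2778 CPM or more in every sample. In sorted bulk RNA, fewer cells of a type and less RNA per cell cannot be told apart. The samples of mice 1 to 6 and of mice 7 to 12 differed for many genes, although no label gives a batch, and 1 midbrain sample, that of mouse 5, stood apart for several members. Values without that sample or within each set of mice are given beside the results that they change.

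Per kb of exon, Ms4a6d was the most abundant member, at 86.5 ± 9.59 CPM per kb (SD, n = 35), followed by Ms4a6b at 23.2 ± 3.53, Ms4a6c at 9.77 ± 1.86 and Ms4a4c at 2.03 ± 1.70. Per kb, the ranges of Ms4a6d, Ms4a6b and Ms4a6c did not overlap. In CPM, not divided by length, Ms4a6b reached 145 and Ms4a6d went down to 125, so these 2 overlapped. The order per kb rests on the exonic lengths given above, and 53.1% of the exonic bases of Ms4a6c are shared with BE692007, a gene described below. The per kb ranges of Ms4a6c and Ms4a4c overlapped through the midbrain sample of mouse 5 alone, where Ms4a4c reached 10.1 CPM per kb and Ms4a6c stood at 15.9. Raw counts per sample were 4917 to 9500 for Ms4a6d, 3194 to 6856 for Ms4a6b, 624 to 1511 for Ms4a6c and 42 to 818 for Ms4a4c, so Ms4a4c rested on the fewest reads. The plot of gene positions sets these levels beside the order of the genes.

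**Figure D1:**
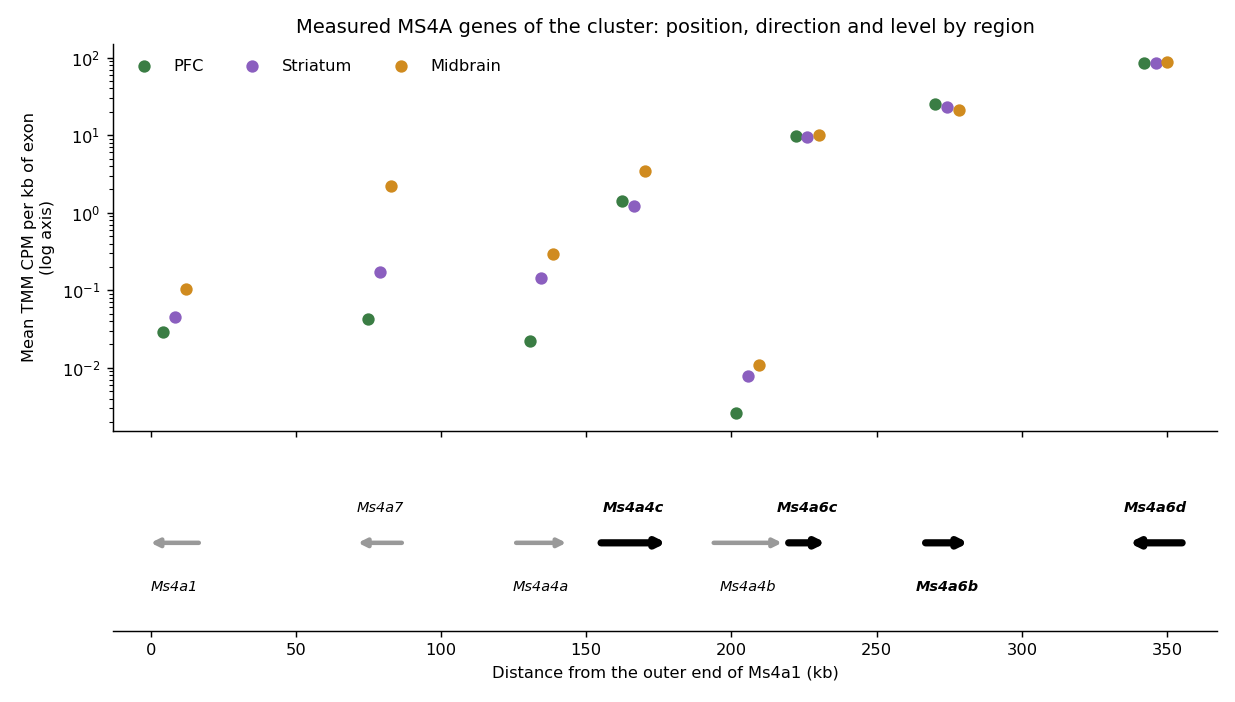
Mean TMM-scaled CPM per kb of exon (top, log axis) of the 8 MS4A genes of the cluster that were in the count table, by region, above their order and direction (bottom, distance in kb from the outer end of Ms4a1; black arrows are the 4 members). The 3 Ms4a6 genes have the highest levels, with Ms4a6d at the top, and points of one gene are set side by side for visibility.

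Brain region was compared first, in a model of region and sex. A main effect of region was detected for 1 of the 4 members, Ms4a4c (adjusted p = 0.000149, edgeR quasi-likelihood test with Benjamini-Hochberg adjustment over all genes), where 8.89% of all genes had one. Ms4a6b had an adjusted p of 0.0772, Ms4a6d of 0.779 and Ms4a6c of 0.911.

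Ms4a4c was expressed more highly in the midbrain than in the striatum and the PFC. In the midbrain its level was 2.72 CPM at the lowest, 5.57 at the median and 17.7 at the highest. In the striatum the lowest, median and highest levels were 1.01, 1.93 and 3.78 CPM. In the PFC they were 1.22, 2.15 and 4.80 CPM. The highest midbrain sample came from mouse 5, the highest striatum and PFC samples came from mouse 10, and the 3 ranges overlapped. Within mice the order was steadier: the striatum was lower than the midbrain in 12 of 12 mice and the PFC in 10 of 11, mouse 10 being the exception.

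The fitted level of Ms4a4c in the striatum was 2.81-fold below that of the midbrain (log2 fold change -1.49, SE 0.271, edgeR adjusted p = 0.000385) and that in the PFC 2.41-fold below it (log2 fold change -1.27, SE 0.277, edgeR adjusted p = 0.00229). A gene was called between 2 regions where the region effect had an adjusted p below 0.05, the contrast a p below 0.05 and the fold change exceeded 1.2. By this rule Ms4a4c was the 1 of 4 members lower in each comparison, against 2.98% of all genes for the striatum and 3.24% for the PFC. Between striatum and PFC the log2 fold change of Ms4a4c was -0.23, with a 95% interval from -0.78 to 0.33 (edgeR adjusted p = 0.824). The plot of levels by region shows each sample.

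**Figure D2:**
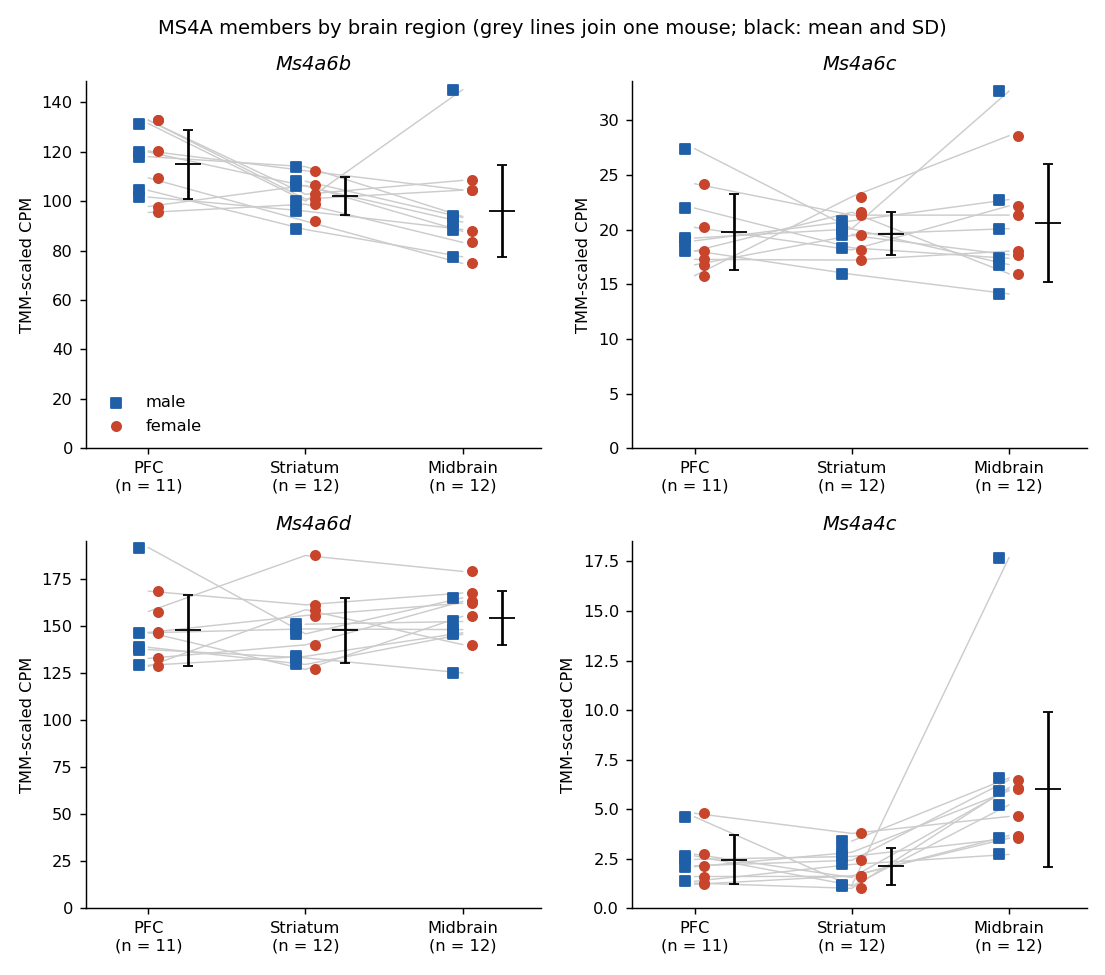
TMM-scaled CPM of each member by region, 1 point per sample (squares male, circles female), with grey lines joining the samples of 1 mouse and black marks for the mean and SD. Ms4a4c is higher in the midbrain in nearly every mouse, Ms4a6b has its highest mean in the PFC, and Ms4a6c and Ms4a6d have like means in the 3 regions.

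The size of the Ms4a4c difference depended on which mice were used. In the midbrain, mice 1 to 6 ranged from 5.93 to 17.7 CPM and mice 7 to 12 from 2.72 to 5.22 CPM, so the 2 sets did not overlap there, whereas their ranges overlapped in the striatum and the PFC. Ms4a6b (93.4 to 145 against 74.8 to 91.5 CPM) and Ms4a6c (20.1 to 32.7 against 14.1 to 18.03 CPM) were also higher without overlap in the midbrain of mice 1 to 6, making 3 of 4 members where 3.32% of all genes were. Fitted on mice 1 to 6 alone, the log2 fold changes of Ms4a4c were -1.97 for the striatum and -1.81 for the PFC. Fitted on mice 7 to 12 alone they were -0.85 (edgeR adjusted p = 0.156) and -0.54 (edgeR adjusted p = 0.483), and neither was called. Over all other fits the adjusted p stayed between 3.53e-06 and 0.00403 for the striatum and between 0.000168 and 0.00858 for the PFC. The difference between the 2 sets of mice, tested in 1 model, was 1.13 (SE 0.488, edgeR adjusted p = 0.772) for the striatum and 1.31 (SE 0.503, edgeR adjusted p = 0.459) for the PFC, which did not pass the adjustment over all genes. Without the midbrain sample of mouse 5 the log2 fold changes were -1.23 and -1.01, and both were still called.

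**Figure D3:**
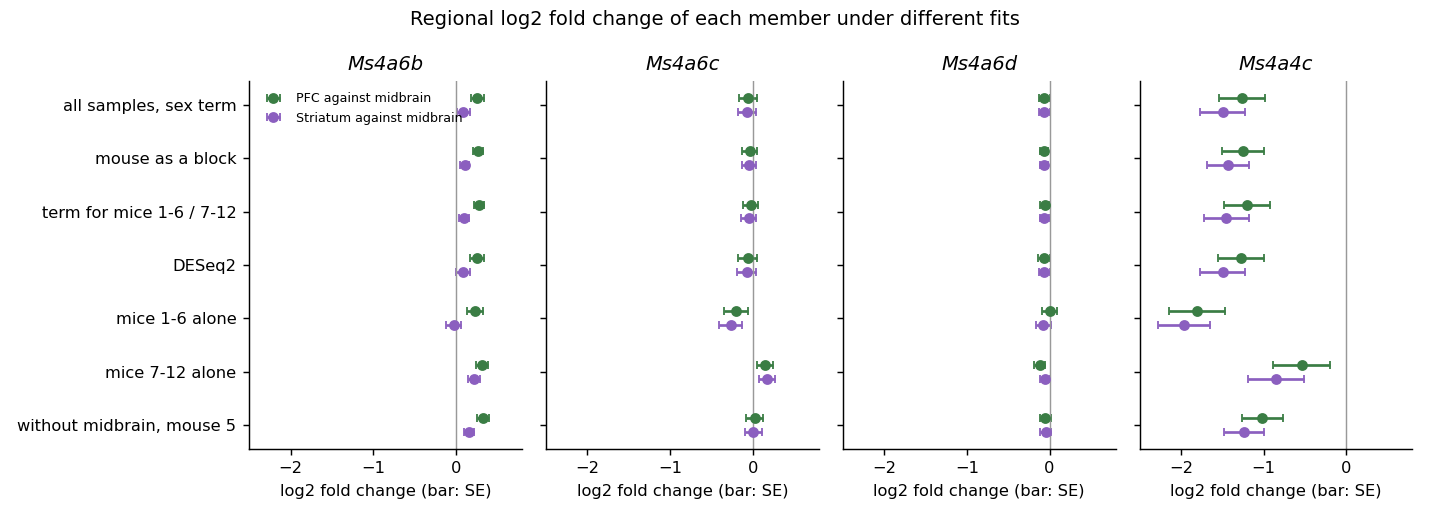
Log2 fold change of each member against the midbrain (green PFC, purple striatum; bars are standard errors) under 7 fits, 1 per row. Ms4a4c lies below 0 in all 7 and is smallest in mice 7 to 12 alone, Ms4a6b lies above 0 for the PFC in all 7, and Ms4a6c and Ms4a6d lie close to 0.

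Ms4a6b, which has been described as a membrane adaptor in T cells and is also expressed by macrophages, had its highest mean in the PFC and its lowest in the midbrain, a difference that was not called in the model of region and sex. Its level in the midbrain was 74.8 CPM at the lowest, 92.5 at the median and 145 at the highest. In the striatum these were 88.5, 101.8 and 114 CPM. In the PFC they were 95.4, 118 and 133 CPM. The ranges overlapped, and the highest value of all was again the midbrain sample of mouse 5. Within mice the PFC was higher than the midbrain in 10 of 11, mouse 5 being the exception, and higher than the striatum in 9 of 11. The striatum was higher than the midbrain in 9 of 12 mice.

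The log2 fold change of Ms4a6b between PFC and midbrain was 0.26 (SE 0.0801, edgeR adjusted p = 0.042), which is a 1.197-fold difference just under the minimum fold of 1.2, and with the region effect at an adjusted p of 0.0772 it was not called. No member was therefore called higher in the PFC, as 2.75% of all genes were. When each mouse was a block and the sex term was dropped, the log2 fold change was 0.27 (edgeR adjusted p = 0.00279) and the region effect had an adjusted p of 0.00619, so that Ms4a6b was called; in that fit 2977 of the 21236 genes had a region effect, in place of 1888, and 3.08% were called higher in the PFC. It was called as well with a term for mice 1 to 6 against mice 7 to 12 (0.28), in limma-voom with a random effect of mouse (0.27), in mice 7 to 12 alone (0.31), without mouse 5 (0.30) and without the midbrain sample of mouse 5 (0.33). It was not called in mice 1 to 6 alone (0.23, edgeR adjusted p = 0.29), the highest adjusted p of any fit, the lowest being 0.00113. Against the midbrain, the striatum differed by 0.09 (95% interval -0.07 to 0.25), and 0 of 4 members were called higher there, where 3.50% of all genes were. Some markers of other brain cells were also higher outside the midbrain. The summed level of 8 of 8 neuronal markers was 2.15 to 6.41 CPM for midbrain samples, 6.07 to 14.7 for striatum samples and 10.1 to 26.5 for PFC samples, and 4 of the 8 were called higher in the PFC. The sum of 6 of 6 astrocyte markers was 175 to 218, 228 to 315 and 223 to 340 CPM in the same order, and 2 of the 6 were called higher in the PFC. The sum of 6 of 6 oligodendrocyte markers was not higher in the PFC, at 294 to 489 CPM for midbrain samples, 289 to 816 for striatum samples and 228 to 508 for PFC samples, and 1 of them, Mbp, a myelin protein gene, was called lower in the PFC (log2 fold change -0.67). That of 6 of 6 endothelial markers was 9.23 to 34.8, 19.6 to 55.7 and 15.2 to 35.5 CPM, and 0 were called in either comparison with the midbrain in edgeR, with 1 at an unadjusted p below 0.05 in each (Cldn5 in the PFC and Pecam1 in the striatum). The part of these cells in the result was not tested.

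Over all mice, Ms4a6d and Ms4a6c, both expressed by macrophages, had like levels in the 3 regions and were not called. Ms4a6d had a lowest, median and highest level of 125, 154 and 179 CPM across midbrain samples, 127, 147 and 188 across striatum samples and 129, 147 and 192 across PFC samples. Its log2 fold change against the midbrain was -0.06 for the PFC (95% interval -0.20 to 0.07) and -0.06 for the striatum (-0.19 to 0.07). Ms4a6c had a lowest, median and highest level of 14.1, 19.1 and 32.7 CPM across midbrain samples, 15.9, 19.8 and 23.0 across striatum samples and 15.8, 18.97 and 27.4 across PFC samples. Its log2 fold change was -0.06 for the PFC (95% interval -0.28 to 0.16) and -0.07 for the striatum (-0.29 to 0.15). Within mice, the PFC level exceeded the midbrain level in 5 of 11 for Ms4a6c and in 3 of 11 for Ms4a6d. The lower ends of the Ms4a6c intervals lie beyond a 1.2-fold change, and both Ms4a6d intervals lie within it. In mice 1 to 6 the means of Ms4a6c were 24.6, 20.5 and 21.3 CPM in midbrain, striatum and PFC. In mice 7 to 12 they were 16.7, 18.8 and 18.6 CPM. Tested in 1 model, the log2 fold changes of Ms4a6c differed between the sets by 0.44 for the striatum (SE 0.166, edgeR adjusted p = 0.757). For the PFC they differed by 0.36 (SE 0.17, edgeR adjusted p = 0.63), and neither difference passed the adjustment over all genes.

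Between striatum and PFC no member was called in either direction, where 2.31% of all genes were called higher and 0.833% lower in the striatum. The member with the lowest p was Ms4a6b (log2 fold change -0.17, edgeR adjusted p = 0.396). It was the 1 member with an unadjusted p under 0.05 in that comparison.

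Whether the members differed from each other in their regional change was tested within mice on log2 CPM, for 6 pairs of members and 3 pairs of regions. Of the 18 differences, 11 had an adjusted p below 0.05 (exact two-sided sign-flip permutation test, Benjamini-Hochberg over the 18). From midbrain to striatum, the change of Ms4a6b exceeded that of Ms4a4c by 1.54 on the log2 scale, that of Ms4a6c by 1.39 and that of Ms4a6d by 1.37, each in 12 of 12 mice (adjusted p = 0.00293 by the exact permutation test). From midbrain to PFC the same differences were 1.49 in 11 of 11 mice, 1.18 in 10 of 11 and 1.15 in 10 of 11 (adjusted p = 0.00439, 0.00586 and 0.00879 by the exact permutation test). These differences from Ms4a4c were larger in mice 1 to 6 than in mice 7 to 12: their means were 2.03, 1.56 and 1.81 against 1.03, 0.87 and 0.60 from midbrain to PFC, and 1.95, 1.71 and 1.88 against 1.13, 1.08 and 0.86 from midbrain to striatum. Ms4a6b also moved apart from its Ms4a6 neighbours. From midbrain to PFC it exceeded Ms4a6c by 0.30 and Ms4a6d by 0.33, each in 10 of 11 mice (adjusted p = 0.00753 and 0.0137 by the exact permutation test), and from PFC to striatum it fell relative to both by 0.17 (adjusted p = 0.0141 and 0.00586). In mice 1 to 6 and mice 7 to 12 the mean excess of Ms4a6b from midbrain to PFC was 0.47 and 0.17 over Ms4a6c and 0.22 and 0.43 over Ms4a6d, and its fall relative to Ms4a6c from PFC to striatum had means of -0.24 and -0.11. Its excess over Ms4a6d from midbrain to striatum, 0.17, passed with an adjusted p of 0.0431 by the exact permutation test but missed the threshold when any 1 of 10 of the 12 mice was left out (all but mice 4 and 5), and had means of 0.07 and 0.27 in the 2 sets. Ms4a6c and Ms4a6d had mean differences of 0.03 from midbrain to PFC, 0.03 from midbrain to striatum and -3.25e-05 from PFC to striatum, and none passed the test. These means near 0 were made up of sets with opposite signs, -0.25 in mice 1 to 6 and 0.27 in mice 7 to 12 from midbrain to PFC and -0.17 and 0.22 from midbrain to striatum. Whether these differences between members changed between the 2 sets of mice was not tested.

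Males and females were compared over regions and within each region. No member was called (p below 0.05 and a fold change above 1.2), where 4.13% of all genes were over regions, 4.84% for the midbrain, 2.28% for the striatum and 5.29% for the PFC. The log2 difference of males from females was 0.02 for Ms4a6b, 0.03 for Ms4a6c, -0.09 for Ms4a6d (95% interval -0.20 to 0.02) and 0.27 for Ms4a4c (95% interval -0.17 to 0.72). In the midbrain Ms4a4c was at 6.95 ± 5.46 CPM in 6 males and 5.07 ± 1.29 in 6 females (SD), and the male spread came from mouse 5. Leaving out mouse 10, a female, brought the overall difference of Ms4a4c to 0.47, which was then called. The fit over regions took samples of the same mouse as independent, although sex varies between mice. Its intervals and calls for sex, and its share of all genes, do not allow for this. The interaction of sex and region was called in edgeR for 0% of all genes at an adjusted p below 0.05, while 632 genes and none of the members had an unadjusted p below 0.05.

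Correlations between members across mice were computed within each region. Over 6 pairs of members in 3 regions, 6 of 18 correlations of log2 CPM across mice had an adjusted p below 0.05 (permutation test, Benjamini-Hochberg over the 18), 4 of them in the midbrain and 1 each in the striatum and the PFC; regions were not tested against each other. In the midbrain, Ms4a6c and Ms4a4c gave r = 0.90 and rho = 0.86 (n = 12, permutation p = 1e-05, the smallest that 100000 resamples can give, adjusted p = 0.00018; adjusted p for rho = 0.0119). The coefficient r was 0.89 without the 2 samples farthest from the median, and 0.78 within mice 1 to 6 and 0.78 within mice 7 to 12. Within mice 1 to 6, mouse 5 was highest for both genes, at 32.7 CPM for Ms4a6c and 17.7 for Ms4a4c. The other mice of that set ranged from 20.1 to 28.6 and from 5.93 to 6.58 CPM, and r among them was not computed. All permutations ran over the mice of both sets, so these p-values also take in differences between the sets. In the striatum the same pair gave r = -0.02 and rho = -0.01 (n = 12).

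Ms4a6c and Ms4a6d gave r = 0.73 and rho = 0.78 in the midbrain (n = 12, permutation p = 0.0062, adjusted p = 0.0266; adjusted p for rho = 0.0264), with r = 0.66 without the 2 farthest samples and 0.58 and 0.95 in the 2 sets of mice. In the striatum they gave r = 0.78 and rho = 0.79 (n = 12, permutation p = 0.0031, adjusted p = 0.0186; adjusted p for rho = 0.0264), with r = 0.70 without the 2 farthest samples and 0.95 and 0.61 in the 2 sets. In these 2 regions r was above 0 in both sets of mice, but the adjusted p of r rose above 0.05 in the midbrain without mouse 6 (0.0821), mouse 7 (0.0666) or mouse 8 (0.0539), and in the striatum without mouse 6 (0.06003) (permutation tests).

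The other 3 did not hold within both sets of mice. Ms4a6b with Ms4a6c in the midbrain gave r = 0.79 and rho = 0.72 (n = 12, permutation p = 0.00225, adjusted p = 0.0186; adjusted p for rho = 0.0467; r = 0.66 without the 2 farthest samples) but 0.79 within mice 1 to 6 and -0.79 within mice 7 to 12. Ms4a6b with Ms4a4c in the midbrain gave r = 0.78 and rho = 0.68 (n = 12, permutation p = 0.00738, adjusted p = 0.0266; adjusted p for rho = 0.0614; r = 0.51 without the 2 farthest samples), and 0.91 and -0.89 in the 2 sets. Ms4a6b with Ms4a6d in the PFC gave r = 0.70 and rho = 0.70 (n = 11, permutation p = 0.0139, adjusted p = 0.0416; adjusted p for rho = 0.0614; r = 0.76 without the 2 farthest samples). This pair gave 0.46 within mice 1 to 6, which held 5 PFC samples, and -0.06 within mice 7 to 12. Leaving out 1 mouse at a time left 3 to 6 correlations below the threshold, with 3 after leaving out mouse 5 or mouse 6, and the relation of Ms4a6c and Ms4a4c in the midbrain was among the 3 in both cases.

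Overlapping and near-identical genes bear on these values, since reads were 50 bases long. Of all 50-base windows of the Ms4a6c transcripts, 51.4% also occur in another gene, mostly BE692007 (993 of 2001 windows). BE692007 (ENSMUSG00000099757) lies on the opposite strand at 11470166 to 11484578 and covers 53.1% of the exonic bases of Ms4a6c. The library kit does not mark strand, so reads from the shared stretch cannot be told apart. BE692007 was at 11.5 ± 3.04 CPM over midbrain samples (SD, n = 12), 10.5 ± 1.199 over striatum samples (n = 12) and 10.6 ± 2.26 over PFC samples (n = 11) and was not called between regions. For the other members 8.19% of the Ms4a4c windows, 3.57% of the Ms4a6b windows and 2.54% of the Ms4a6d windows were shared, those of Ms4a4c mainly with Ms4a4b. Ms4a4b itself had 0 to 19 counts per sample.

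The genes whose pattern was most like each member were sought among 12296 other genes with a mean of at least 1 CPM, by the Pearson correlation of log2 CPM over the 35 samples after region and sex means were removed. These values are a description, since the samples share mice and library depth. The midbrain sample of mouse 5 and the difference between the 2 sets of mice were left in. In that sample Ms4a4c was at 17.7 CPM (midbrain median 5.57) and Ifit3 at 57.8 CPM (midbrain median 6.87). The weight of either in the correlations was not tested. For Ms4a4c the 5 closest were Ifitm3 (r = 0.75), a membrane protein that restricts virus entry, Phf11b (0.74), Ube2l6 (0.73), the enzyme that conjugates ISG15, Ly6a (0.70) and Ifit3 (0.70). Of these, 2 were on the list of interferon-stimulated genes. For Ms4a6c they were BE692007 (0.92), the overlapping gene, C1qa (0.78), a chain of complement C1q, Uqcrq and Uqcrc2 (0.78 each), subunits of mitochondrial complex III, and Smim4 (0.77). For Ms4a6d they were AW112010 (0.83), a transcript annotated on the same chromosome at 11047612 to 11055808, Gm10288 (0.81), Lst1 (0.80), Gm5526 (0.80) and Akr1a1 (0.80). For Ms4a6b they were Smim20 (0.88), Rsl24d1 (0.87), a ribosome assembly factor, Pef1 (0.87), Tmem37 (0.85) and Mcrip1 (0.85). No member was among the 5 closest of another. By correlation the closest members were Ms4a6b and Ms4a6c (r = 0.70) and Ms4a6c and Ms4a6d (0.69), and by rank Ms4a6c stood nearest to Ms4a4c, as its 65th gene (0.52).

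Interferon-stimulated genes were compared beside Ms4a4c, from a list of 24 that were all in the table. They were lower outside the midbrain: 10 of 24 were called lower in the PFC and 11 of 24 in the striatum, and 0 higher in either, with median log2 fold changes of -0.92 and -0.95 against 0.01 for all genes in both. Of all genes, 3.24% were called lower in the PFC and 2.98% in the striatum, and 2.75% and 3.50% higher. Among them Ifi204, a cytosolic DNA sensor family gene, fell by 1.93 and 1.84 on the log2 scale in PFC and striatum (edgeR adjusted p = 0.000157 and 0.000301). Ifi27l2a fell by 1.68 and 1.46 (edgeR adjusted p = 0.000119 and 0.000779). Isg15, a ubiquitin-like modifier, fell by 0.92 and 1.05 (edgeR adjusted p = 0.0245 and 0.00764), and Irf7, a transcription factor of the interferon response, by 1.03 and 0.95 (edgeR adjusted p = 0.0492 and 0.0602). Ifitm3 and Ifit3, the list genes closest to Ms4a4c, had log2 fold changes of -0.91 and -0.94 in the PFC and were not called. With the mouse as a block 17 were lower in the PFC and 18 in the striatum, where 3.77% and 3.47% of all genes were. In mice 1 to 6 alone 7 were lower in each region, where 1.31% and 1.02% of all genes were, and in mice 7 to 12 alone 1 in each (medians -0.49 and -0.36), where 2.10% and 2.23% were. Without the midbrain sample of mouse 5 the counts were 5 and 6 (medians -0.57 and -0.57), where 3.41% and 3.21% of all genes were lower.

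The summed level of the list ranged from 358 to 1085 CPM over midbrain samples, from 270 to 567 over striatum samples and from 278 to 569 over PFC samples. The highest midbrain sample was that of mouse 5 and the highest striatum and PFC samples were those of mouse 10, the same samples in which Ms4a4c was highest in its region. The list did not separate the 2 sets of mice in the midbrain as Ms4a4c did: mice 1 to 6 ranged from 411 to 1085 CPM and mice 7 to 12 from 358 to 625.03 CPM.

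**Figure D4:**
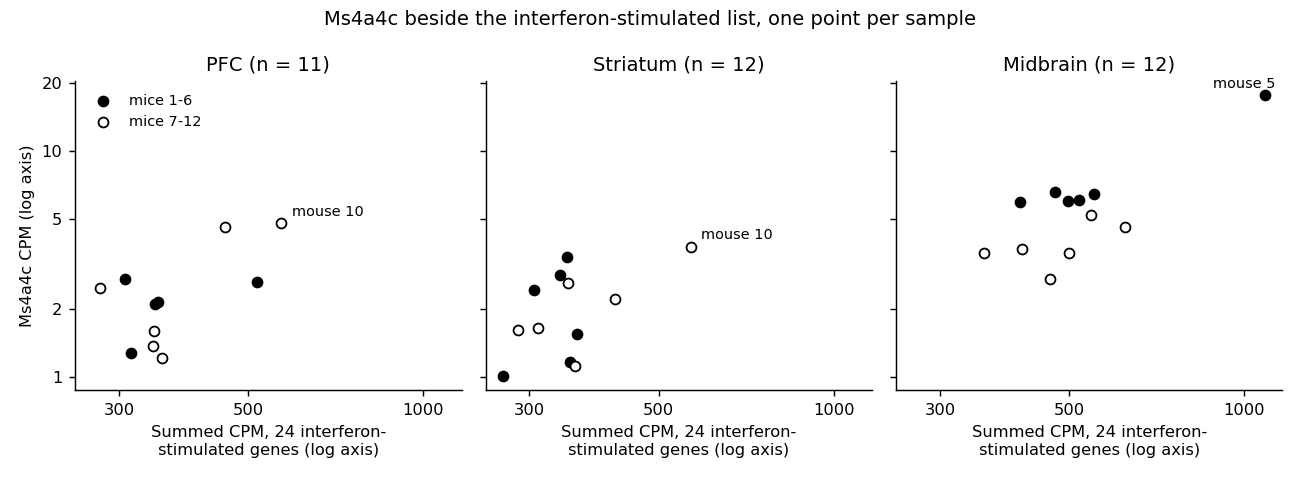
Ms4a4c CPM against the summed CPM of 24 interferon-stimulated genes (both log axes), 1 point per sample and 1 panel per region, with mice 1 to 6 filled and mice 7 to 12 open. The midbrain sample of mouse 5 (1085 and 17.7 CPM) and the striatum and PFC samples of mouse 10 are highest on both axes in their panels, and in the midbrain all filled points lie above all open points.

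Genes that work with TREM2, whose soluble form human MS4A variants are associated with, were compared next. All 8 on the list (Trem2, its adaptor Tyrobp, the signalling genes Syk, Plcg2 and Inpp5d, the sheddases Adam10 and Adam17, and the ligand Apoe) were in the table and 0 were called in any pair of regions in edgeR, with 0 region effects below an adjusted p of 0.05. Of all genes, 8.89% had such a region effect. Trem2 had log2 fold changes of -0.06 in the PFC (95% interval -0.19 to 0.06) and 0.05 in the striatum (-0.07 to 0.18) against the midbrain, and Tyrobp -0.07 and -0.06. Apoe had -1.15 in the PFC (edgeR adjusted p = 0.0445 for this contrast). Its region effect had an adjusted p of 0.0765, so it was not called. At an unadjusted p below 0.05 in the other comparisons stood Apoe at 0.94 in the striatum against the PFC (edgeR adjusted p = 0.25). Inpp5d did so as well, at 0.22 in the striatum against the midbrain (edgeR adjusted p = 0.167).

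Of the 17 other MS4A family genes on the list, 6 were in the table. Tmem176a and Tmem176b, related genes on chromosome 6 found in antigen-presenting cells, fell from the midbrain by 0.56 and 0.38 on the log2 scale in the PFC and by 0.62 and 0.37 in the striatum, in 11 of 11 and 12 of 12 mice. Ms4a7, a gene used to mark border macrophages, was called lower in both regions (log2 fold change -5.39 in the PFC and -3.27 in the striatum) and, between those 2, higher in the striatum (2.12). Its highest sample was the midbrain of mouse 6, at 97.9 CPM, while the other midbrain samples lay between 0.155 and 4.79 CPM, the striatum samples between 0 and 1.98 and the PFC samples between 0 and 0.543. Without mouse 6 the log2 fold change of Ms4a7 was -3.25 in the PFC (edgeR adjusted p = 0.00384), still called, and -1.29 in the striatum (edgeR adjusted p = 0.256), no longer called. Ms4a1, the CD20 gene of B cells, Ms4a4a and Ms4a4b were at low counts and were not called between regions, with 3 or fewer counts in 13, 21 and 25 of the 35 samples.

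Markers of other myeloid cells were compared in the same way. Of 10 border macrophage markers 9 were in the table; their sum ranged from 2.71 to 142 CPM over midbrain samples (median 8.19, highest in mouse 6), from 4.25 to 13.5 over striatum samples and from 3.74 to 11.1 over PFC samples. Of these 9, Ms4a7 among them, 3 were lower in the PFC (Ms4a7, Clec12a and Clec4n) and 2 in the striatum (Ms4a7 and Clec4n), and 0 were called higher. With all mice, 3.24% of all genes were called lower in the PFC and 2.98% in the striatum, and 2.75% and 3.50% higher. These shares also stand beside the counts of the other lists below. Without mouse 6 the 1 lower in the PFC was Ms4a7, Mrc1, the mannose receptor gene, was called higher there, and 0 were called in the striatum, where 2.96%, 2.68%, 2.75% and 3.51% of all genes were called lower and higher in the PFC and lower and higher in the striatum. The defining marker Cd163 was at 0 in 8, 8 and 9 samples of the midbrain, striatum and PFC. Of 10 monocyte markers 9 were in the table, with sums of 1.52 to 8.36, 1.94 to 5.38 and 2.42 to 8.26 CPM in the same order, and Ly6c2 was at 0 in 6, 4 and 8 samples. Of these 9, 3 were called lower (Ly6c2, Spn and Ace) and 1 higher (Ccr2) in the PFC, and 2 lower (Ly6c2 and Spn) and 2 higher (Ccr2 and Ace) in the striatum. Ly6c2 and Spn were thus lower outside the midbrain, as Ms4a4c was, with log2 fold changes of -3.12 and -3.05 in the PFC (the highest Ly6c2 level was 3.63 CPM, in the midbrain of mouse 6), while Ccr2, the chemokine receptor of monocytes, was at 1.59. Of 6 neutrophil markers 3 were in the table, with highest sums of 0.962, 0.884 and 42.2 CPM in the midbrain, striatum and PFC. The highest PFC sum was that of mouse 1, a male, where the PFC median was 0.0217 CPM. Of these 3, Ngp was called higher in the PFC and 0 were called in the striatum, and all 3 were called higher in males. Of 6 lymphocyte markers 4 were in the table, and 1, the B cell gene Cd79a, was called lower in both regions (log2 fold changes -2.02 in the PFC and -1.11 in the striatum). The sum of the 4 was 32.9 to 55.5, 36.4 to 55.02 and 31.1 to 48.2 CPM in the midbrain, striatum and PFC, highest among midbrain samples in that of mouse 5. In the midbrain sample of mouse 5, where Ms4a4c was highest, the border macrophage and monocyte sums were 10.01 and 6.25 CPM, beside midbrain medians of 8.19 and 3.46. Of the monocyte markers, Plac8 had its highest midbrain level there (3.87 CPM, median 0.54), while Ccr2, Ly6c2 and S100a4 had theirs in mice 7, 6 and 2. Without mouse 6 the log2 fold changes of Ms4a4c were -1.24 in the PFC and -1.51 in the striatum, beside -1.27 and -1.49 with it. The part of these other cells in the Ms4a4c result was not tested.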

How the data were processed

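Per the labels and the study's methods, microglia were sorted by flow cytometry for tdTomato, and libraries were made with Smart-Seq HT and Nextera XT and read as paired 50-base reads. The authors checked reads with FastQC, trimmed them with Trimmomatic and mapped them with HISAT2 to Ensembl GRCm38; the counting tool, annotation release and treatment of multi-mapping reads were not given in the sources used here. The authors deposited raw counts per Ensembl gene, after a filter described as at least 1 CPM in at least 1 subgroup of sex and region; of the genes deposited, however, 39.5% had a mean under 1 CPM in every such subgroup and 31.7% were under 1 CPM in every sample. A column named for the PFC of mouse 3 belongs to a sample labelled striatum of mouse 3 and was used as striatum. No columns of other samples were present.

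From these counts, edgeR 4.0.16 (R 4.3.3) fitted region and sex over all 35 samples and 21236 genes with TMM scaling and the robust quasi-likelihood test; sex within regions and the interaction came from a model with 1 mean per group of sex and region. Levels are TMM-scaled CPM, and log2 CPM used a prior count of 2. Total counts of 37680501 to 54131421 per sample limit precision mainly for Ms4a4c. Replicates are separate mice. Samples of 1 mouse come from the same animal and are thus paired: over 34 same-mouse pairs the mean correlation of their deviations was 0.225, and over 170 pairs of different mice it was -0.0431. Alternatives were DESeq2 1.42.0 and its size factors, filterByExpr (16974 genes), no robust fit, limma-voom (limma 3.58.1) with mouse as a random effect, mouse as a block, a term for mice 1 to 6 against mice 7 to 12, each set alone, calls on adjusted p with no minimum fold, a prior count of 0.5, leaving out each mouse or the striatum sample of mouse 3, and, added after the data had been seen, leaving out the midbrain sample of mouse 5 and the test of the 2 sets of mice. The scripts were tested on simulated counts. Named genes were the 4 members, the family genes in the table, genes of the lists discussed and the 5 genes most like each member. The members and the lists (MS4A family, TREM2 partners, interferon-stimulated, homeostatic microglia, border macrophage, monocyte, neutrophil, lymphocyte, neuron, astrocyte, oligodendrocyte, endothelial) were chosen with earlier results of these data known.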

Additional observations from a re-analysis of the deposited data

Results flagged for a closer look

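In each group of 1 region and 1 sex, the highest and lowest samples were compared with the rest by Dixon's criterion at its 95% value. Of 24 such groups over the 4 members, 3 held a sample far from the others, and all 3 were samples of mouse 5, a male. Chance gives about 1 in 20 for independent groups. These groups are not independent, since the same samples recur for each member and the midbrain sample of mouse 5 stood out for both Ms4a4c and Ms4a6b. The count therefore cannot be set against that share. In the male midbrain group, Ms4a4c was at 17.7 CPM in mouse 5 and at 2.72 to 6.58 CPM in the other 5 males. In the same sample Ms4a6b was at 145 CPM, with the other males between 77.5 and 93.8 CPM. In the male PFC group, Ms4a6d was at 192 CPM in mouse 5 and at 129 to 147 CPM in the other 4 males. What sets these samples apart was not tested.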

How the results depend on the processing

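The direction and call of Ms4a4c in both comparisons with the midbrain held in every alternative except mice 7 to 12 alone, where the calls were lost. With that set alone 0 members were called between striatum and midbrain, and the 1 member called between PFC and midbrain was Ms4a6b. The count of members with a region effect, and that between PFC and midbrain, was 2 in place of 1, by the addition of Ms4a6b, with mouse as a replicate block, with a term for the 2 sets of mice, in limma-voom and without the midbrain sample of mouse 5; it was 1 to 2 when single mice were left out (2 without mouse 5). Of all genes, 2977, 2710, 2972 and 1986 had a region effect in these fits, in place of 1888. The block changed no other call among the members. Leaving out single mice gave 0 to 1 members for sex (1 without mouse 10), 10 to 12 differences between members and 3 to 6 correlations below the threshold.

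Values that changed sign were not called. Between PFC and midbrain, Ms4a6c had a log2 fold change of 0.15 in mice 7 to 12 alone and 0.02205 without the midbrain sample of mouse 5, and Ms4a6d 0.002111 in mice 1 to 6 alone. Between striatum and midbrain, Ms4a6b had -0.02899 in mice 1 to 6 alone, and Ms4a6c 0.17 in mice 7 to 12 alone and 0.008535 without the midbrain sample of mouse 5. Between striatum and PFC, Ms4a6c had 0.01685 in mice 7 to 12 alone, and Ms4a6d -0.00183 with filterByExpr, -4.93e-05 with the block, -0.002258 with the term for sets of mice, -0.07549 in mice 1 to 6 alone and -0.002335 without the striatum sample of mouse 3. For males against females, Ms4a6b had -0.02413 and Ms4a6c -0.02653 without the midbrain sample of mouse 5, and Ms4a6c -0.001075 and Ms4a4c -0.03697 in mice 7 to 12 alone. With single mice left out, Ms4a6c ranged from -0.09291 to 0.01856 between PFC and midbrain, from -0.06873 to 0.04084 between striatum and PFC and from -0.07804 to 0.09079 for males against females; Ms4a6d ranged from -0.02975 to 0.04986 between striatum and PFC and Ms4a6b from -0.04634 to 0.06807 for sex. The difference of Ms4a6b from Ms4a4c between striatum and PFC then ranged from -0.08138 to 0.1806, and those of Ms4a6c from Ms4a6d from -0.006907 to 0.1012, from -0.006488 to 0.07607 and from -0.02933 to 0.01621 for PFC against midbrain, striatum against midbrain and striatum against PFC. The cause was not tested.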
